A study of Homo sapiens with 6 samples.

Results

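The transcripts of the mitochondrial genome, and the nuclear genes that copy, transcribe, process and translate it, were examined in LN229 cells with and without LACTB overexpression. The members were chosen by gene symbol. They are the 13 protein-coding genes of the mitochondrial genome and 21 nuclear genes, 34 of the 24480 symbols in the deposited table. All 34 were matched and all 34 passed the filter on low values. LN229 is an established human glioblastoma line. RNA-seq was done on 6 libraries of LN229, 3 carrying the vector alone and 3 carrying LACTB. The LACTB protein resembles bacterial beta-lactamases and resides in mitochondria. The labels state no promoter, time after transduction or clonal origin. Nor do they state whether the 3 libraries of a group are independent cultures, and p-values here therefore reflect library-to-library spread that may be technical.

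Human mitochondria carry a small circular genome. One polymerase, POLRMT, transcribes it from each strand as long precursors, with TFAM and TFB2M at the start site and TEFM during elongation. Most mRNAs in these precursors are separated by tRNAs, and excision of the tRNAs, which ELAC2 performs at their 3' ends, frees the mRNAs. The heavy-strand precursor holds every mRNA but that of MT-ND6. After processing, the LRPPRC and SLIRP complex stabilises the mRNAs, while the exonuclease PNPT1 and the helicase SUPV3L1 degrade RNA. The encoded proteins are core subunits of respiratory complexes I, III and IV and of the ATP synthase.

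A few neighbouring genes on the mitochondrial genome are not separated by a tRNA, and some share bases. These junctions are shown because reads across them can be counted for either gene, so the values of such neighbours are tied. Sequences are from GENCODE release 29 transcripts on GRCh38, plus strand, with the bases that belong to both genes in capitals.
MT-ATP8 and MT-ATP6, chrM:8518-8581: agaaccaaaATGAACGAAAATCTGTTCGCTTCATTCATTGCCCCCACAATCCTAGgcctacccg
MT-ATP6 and MT-CO3, chrM:9195-9219: cgacaacacataAtgacccaccaat
MT-ND4L and MT-ND4, chrM:10751-10775: cctactccaATGCTAAaactaatcg
The first junction shares 46 bases, from the start codon ATG of MT-ATP6 to the stop codon TAG of MT-ATP8, which is 22.2% of MT-ATP8 and 6.75% of MT-ATP6. MT-ND4L and MT-ND4 share 7 bases and MT-ATP6 and MT-CO3 share 1 base.

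Column totals were 38049107 to 41384269 normalized read counts in the vector libraries and 34907025 to 35683521 in the LACTB libraries. LACTB itself stood at 458, 515 and 393 in vector libraries 1 to 3 and at 4268, 4078 and 4203 in the LACTB libraries, as labelled. Glial and glioblastoma markers were present, with a summed level of 105781 to 112960 in vector and 111067 to 112105 in LACTB libraries. NES had the highest mean over all libraries, with means of 33780 in vector and 38870 in LACTB libraries. Within that sum S100B was level with NES in vector libraries, with means of 33780 in vector and 14500 in LACTB libraries. Means were 25370 and 35300 for VIM and 1131 and 2674 for SOX2. The astrocyte genes AQP4 and ALDH1L1 did not exceed 8.38 and 4.33 normalized counts in any library, and GFAP had means of 74.5 and 122. Melanocyte markers summed to 48652 to 62480 against 41252 to 43317, mostly SOX10. DCT, MITF and PMEL had larger differences than SOX10, with means of 1776 and 57.7, 1369 and 485, and 383 and 101. TYR was listed at 0 in every LACTB library. MLANA was low in both groups, with means of 13.7 and 11.8 and overlapping ranges. The part of these markers in the results was not tested. The summed immune markers were 1031 to 1122 against 1580 to 1684, nearly all CD68, while PTPRC did not exceed 14.6. Summed neuronal markers were 13546 to 16514 against 15809 to 17294, mostly TUBB3, and endothelial markers 234 to 291 against 163 to 191.

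The 13 mitochondrial genes summed to 1216723, 1196916 and 1314424 normalized counts in vector libraries 1, 2 and 3. They summed to 1048937, 1112606 and 999544 in LACTB libraries 1, 2 and 3. Every LACTB library was below every vector library on this scale. As a share of the column total these genes made up 2.95%, 3.15% and 3.18% with vector. With LACTB they made up 2.94%, 3.19% and 2.86%, so the groups overlapped. The lower sum with LACTB was therefore matched by the lower column totals of these libraries. Dividing by column totals moved the median log2 difference of all genes from 0.05 to 0.24, and differences of single genes are read against that shift. Centring each library on its median moved it to -0.09, with 2684 genes higher and 4148 lower, against 3544 and 3177 as deposited.

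Of the 13 mitochondrial genes, 7 were lower and 0 higher with LACTB on the deposited scale, by limma with Benjamini-Hochberg adjustment over 12939 genes at a threshold of 0.05. The background was large, since 24.6% of all genes tested were called lower and 27.4% higher. Neighbours such as MT-ATP8 and MT-ATP6, or MT-ND4L and MT-ND4, have tied values, so the 13 are not independent. The median log2 difference of the 13 was -0.39, against 0.05 for all genes. With equal column totals 5 of the 13 were lower and 0 higher, where 14.7% of all genes were called lower and 38.5% higher, and their median was -0.20. With quantile normalization 2 were lower, 3 were higher and the median was -0.06. Of all 12939 genes it called 3296 lower and 3214 higher, with a median of 0.01. Values of the groups did not overlap for 8 of the 13 on the deposited scale, against 59.7% of all genes tested. For the share of the column total they did not overlap for 4 of the 13, against 62.7%.

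**Figure D1:**
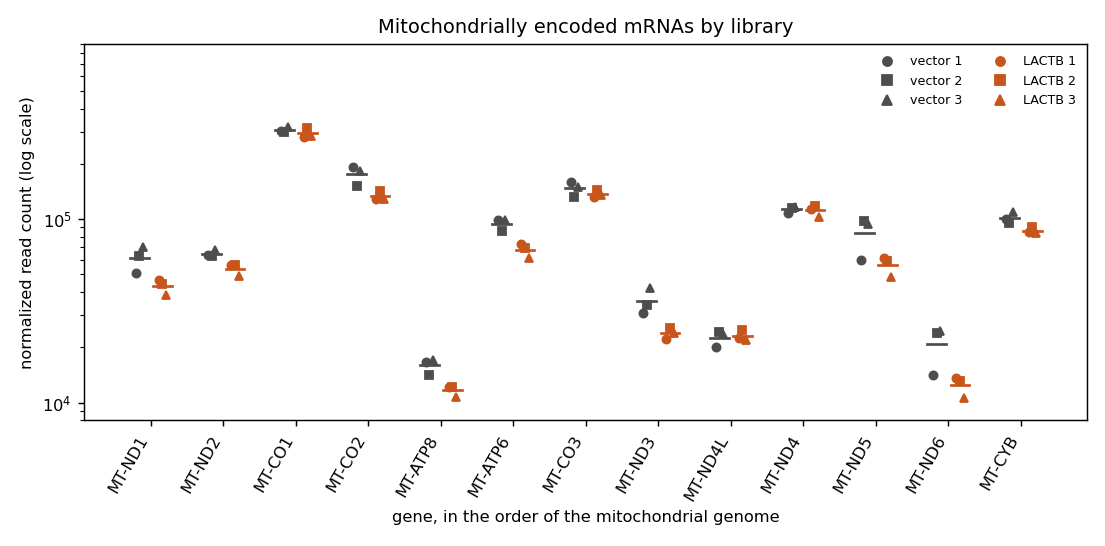
Normalized read counts (log axis) of the 13 mitochondrially encoded genes in each library, in genome order. Points are libraries, vector in grey and LACTB in orange, and lines are group means of 3 libraries. MT-CO1 is the most abundant by count, with overlapping groups. MT-ND1, MT-ND2, MT-ND3, MT-ND6, MT-CYB, MT-CO2, MT-ATP6 and MT-ATP8 are lower in every LACTB library than in any vector library. Vector library 1 lies apart from vector libraries 2 and 3 at MT-ND5 and MT-ND6.

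Both ATP synthase genes were lower as counts and as shares of the column. On the deposited scale 24.6% of all genes were called lower. MT-ATP6 (chromosome M, 8527 to 9207, plus strand), a subunit of the proton channel, stood at 99142, 86206 and 98343 in the vector libraries and at 73126, 69553 and 61123 in the LACTB libraries. All 3 LACTB values lay below all 3 vector values. MT-ATP6 fell by 0.48 on the log2 scale (SE 0.12, limma adjusted p = 0.00211), and -0.29 with equal column totals (limma adjusted p = 0.0179). MT-ATP8 (8366 to 8572), a small accessory subunit, stood at 16670, 14194 and 16961 in vector and 12141, 12193 and 10655 in LACTB libraries, again without overlap. Its log2 difference was -0.45 (SE 0.12), and -0.26 with equal column totals. The ratio of MT-ATP8 to MT-ATP6 was 0.165 to 0.173 in vector and 0.166 to 0.175 in LACTB libraries, so these overlapping genes moved together. Quantile normalization ended the call of MT-ATP6 (-0.09, limma adjusted p = 0.391) and kept that of MT-ATP8 (-0.25).

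Of the 7 complex I genes, 4 were lower and 3 did not pass, beside 24.6% of all genes called lower and 27.4% higher. MT-ND3 (10059 to 10404) fell from 30630, 34152 and 41905 in vector to 22215, 25406 and 23949 in LACTB libraries, without overlap. MT-ND3 fell by 0.57 on the log2 scale (SE 0.12, limma adjusted p = 0.000713). It was -0.37 with equal column totals (limma adjusted p = 0.0131) and -0.16 with quantile normalization, where it did not pass. MT-ND1 (3307 to 4262) stood at 50648, 63048 and 70536 in vector and at 46262, 44106 and 38711 in LACTB libraries, a log2 difference of -0.50 (SE 0.13). Groups did not overlap, though LACTB library 1 lay close to vector library 1. The MT-ND1 call was lost with quantile normalization (-0.06) and when a trend with transcript length and GC was removed (-0.32, limma adjusted p = 0.0914).

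MT-ND5 and MT-ND6 lie side by side on opposite strands and were the most variable mitochondrial mRNAs among the vector libraries. MT-ND5 (12337 to 14148, plus strand) stood at 59588, 97116 and 94291 in vector and 61425, 59310 and 48035 in LACTB libraries. Vector library 1 was within the LACTB range, and vector libraries 2 and 3 were well above it. MT-ND5 fell by 0.55 on the log2 scale (SE 0.15, limma adjusted p = 0.00552). The call was lost with equal column totals (-0.35, limma adjusted p = 0.0778), with quantile normalization (-0.15), without limma's trend and robust settings, and without vector library 3 (-0.44, limma adjusted p = 0.0849).

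MT-ND6 (14149 to 14673), the mRNA of the minus strand, stood at 14163, 24031 and 24506 in vector and 13528, 13126 and 10647 in LACTB libraries. As with MT-ND5, vector library 1 was close to the LACTB libraries, but here the groups did not overlap. MT-ND6 fell by 0.71 on the log2 scale (SE 0.16, limma adjusted p = 0.00122), the largest fall of the 13 on the deposited scale. Its call held in all 17 alternatives, with differences from -0.97 without vector library 1 to -0.51 with quantile normalization. As a share of the column total MT-ND6 took 0.0343%, 0.0632% and 0.0592% in vector and 0.0379%, 0.0376% and 0.0304% in LACTB libraries, which overlapped through vector library 1. The ratio of MT-ND6 to MT-ND5 was 0.238, 0.247 and 0.260 in vector and 0.220, 0.221 and 0.222 in LACTB libraries, without overlap. Its ratio to MT-CYB did overlap, at 0.141, 0.252 and 0.225 in vector and 0.16, 0.145 and 0.126 in LACTB libraries. As a percent of the 12 heavy-strand genes MT-ND6 overlapped too, at 1.18, 2.05 and 1.9 against 1.31, 1.19 and 1.08. Whether the counting used strand is not given in the sources used here. If it did not, antisense RNA of the plus-strand precursor over MT-ND6 would be counted as MT-ND6.

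The other 3 complex I genes did not pass as deposited. MT-ND4 (10760 to 12137) stood at 108434, 115335 and 115832 in vector and 113596, 118411 and 102597 in LACTB libraries, and the groups overlapped. Its log2 difference was -0.02 (SE 0.12, limma adjusted p = 0.882) as deposited, and 0.17 with equal column totals and 0.25 with quantile normalization, where it passed as higher (limma adjusted p = 0.0417). MT-ND4L (10470 to 10766), which shares a mature mRNA with MT-ND4, differed by 0.03 (SE 0.12) as deposited, 0.22 with equal column totals and -0.10 with median centring, and passed as higher under quantile normalization (0.33, limma adjusted p = 0.0169). The MT-ND4L to MT-ND4 ratio was 0.185 to 0.209 in vector and 0.198 to 0.214 in LACTB libraries. MT-ND2 (4470 to 5511) was 62605 to 68152 in vector and 48859 to 56357 in LACTB libraries, without overlap, but its difference of -0.27 did not pass (limma adjusted p = 0.0549). It passed as lower with median centring (-0.40) and without vector library 1 or 2 (-0.28 and -0.29), and was -0.08 with equal column totals and 0.14 with quantile normalization.

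The 3 complex IV genes, core subunits of cytochrome c oxidase, were the most abundant per length in the vector libraries. Per kilobase of gene, MT-CO2 had a vector mean of 256618, MT-CO1 198325 and MT-CO3 187711 normalized counts, followed by MT-ATP6 at 138860. MT-ND5 at 46173 and MT-ND6 at 39810 were the lowest. The first 4 and the last 2 places were the same in LACTB libraries. Between them MT-ND3 went from place 5 to place 8, with means of 102781 and 68951 per kilobase. In the vector libraries MT-CO1 and MT-CO3 in this order did not differ beyond their spread, nor did MT-ATP8 and MT-ND4L, with 77014 and 76094.

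MT-CO2 (7586 to 8269) was the only complex IV gene called, at 192315, 151138 and 183128 in vector and 128995, 141831 and 128805 in LACTB libraries. The groups did not overlap, and MT-CO2 fell by 0.39 on the log2 scale (SE 0.12, limma adjusted p = 0.0113). The call was lost with equal column totals (-0.20, limma adjusted p = 0.0855), with quantile normalization (-0.16) and without vector library 3, LACTB library 1 or LACTB library 3 (limma adjusted p = 0.0599, 0.0553 and 0.0685). MT-CO1 (5904 to 7445) stood at 301308, 298194 and 317949 in vector and 281543, 312301 and 285043 in LACTB libraries, with overlap. Its difference was -0.06 (SE 0.12, limma adjusted p = 0.676) as deposited, but 0.13 with equal column totals and 0.32 with quantile normalization, where it passed as higher (limma adjusted p = 0.00123). MT-CO3 (9207 to 9990) was 131286 to 160009 in vector and 132681 to 144760 in LACTB libraries, a difference of -0.09 as deposited and 0.10 with equal column totals, neither past the threshold. MT-CYB (14747 to 15887), the complex III subunit, was 95501 to 108975 and 84247 to 90766, without overlap, with a difference of -0.23 that did not pass (limma adjusted p = 0.0997) and that was -0.04 with equal column totals and 0.13 with quantile normalization. MT-CYB passed as lower with median centring (-0.36) and without vector library 1 or 2 (-0.24 and -0.27).

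Because the direction of several genes depended on scaling, each gene was also expressed as its share of the 13 summed mitochondrial genes. Both came from the same library, so column scaling cannot change this share. Shares of the same pool add up to the whole, so larger shares of some genes require smaller shares of others. By this measure 6 of the 13 genes had shares that did not overlap between groups. No share over all genes stands beside this count. The exact permutation test cannot decide here, since with 3 against 3 libraries its p is at least 0.1. MT-CO1 made up 24.8%, 24.9% and 24.2% of the pool in vector libraries and 26.8%, 28.1% and 28.5% in LACTB libraries. MT-ND4 made up 8.91%, 9.64% and 8.81% against 10.8%, 10.6% and 10.3%. MT-ND4L had a mean share of 1.82% ± 0.18 in vector and 2.19% ± 0.04 in LACTB libraries (SD, n = 3 each). These 3 genes held larger shares in every LACTB library than in any vector library. Their log2 differences as deposited were -0.06, -0.02 and 0.03, none past the threshold.

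Smaller shares in every LACTB library were held by MT-ATP6, MT-ATP8 and MT-ND3. MT-ATP6 made up 8.15%, 7.20% and 7.48% of the pool in vector and 6.97%, 6.25% and 6.12% in LACTB libraries. MT-ND3 made up 2.85% ± 0.34 and 2.27% ± 0.14, and MT-ATP8 1.28% ± 0.09 and 1.11% ± 0.05. For these 6 genes the two-sided exact permutation p was 0.1, the smallest that 3 against 3 libraries allow. It was 0.217 after adjustment over the 13 genes. No gene could pass, so the test adds nothing to the absence of overlap. MT-ATP6 with MT-ATP8 and MT-ND4 with MT-ND4L are tied neighbours, so the 6 are not independent. The shares of the other 7 overlapped. MT-CYB held 8.17% ± 0.17 and 8.22% ± 0.19 (SD, n = 3 each), and MT-ND5 6.73% ± 1.65 and 5.33% ± 0.53.

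**Figure D2:**
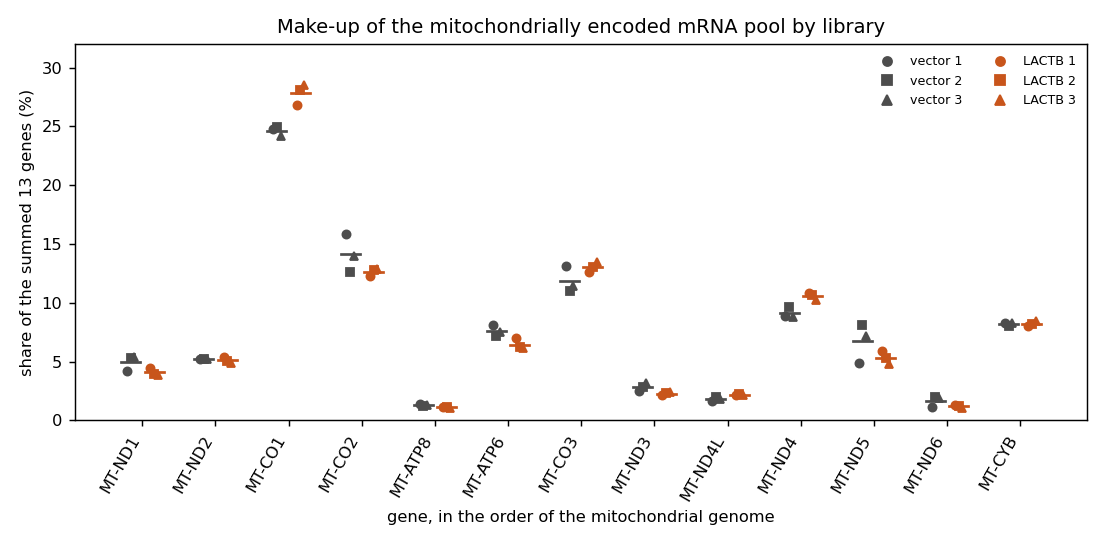
Share of each gene in the summed 13 mitochondrially encoded genes of the same library (percent, axis from 0), in genome order. Points are libraries and lines are means of 3 libraries. MT-CO1, MT-ND4 and MT-ND4L hold more of the pool in all 3 LACTB libraries, and MT-ATP6, MT-ATP8 and MT-ND3 less.

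Ratios between neighbouring genes, which column scaling cannot change, differed between the libraries of the groups for some pairs. MT-ATP6 and MT-CO3 meet without a tRNA between them, and the ratio of MT-ATP6 to MT-CO3 counts was 0.620, 0.657 and 0.655 in vector and 0.551, 0.481 and 0.453 in LACTB libraries. The ratio of MT-CO2 to MT-CO1, whose subunits join one complex, was 0.638, 0.507 and 0.576 in vector and 0.458, 0.454 and 0.452 in LACTB libraries. Every LACTB library was below every vector library for both ratios. The LACTB libraries lay close together for MT-CO2 to MT-CO1, and further apart than the vector libraries for MT-ATP6 to MT-CO3.

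Nuclear copies of mitochondrial DNA can take reads from these genes or give reads to them. In GENCODE release 29, pseudogenes of MT-ND2, MT-CO1, MT-CO2, MT-ATP8 and MT-ATP6 lie in one block of chromosome 1, with identities of 97.6% to 98.6% over the whole gene. There MTCO1P12 (631074 to 632616) is 98.6% identical to MT-CO1 and MTATP6P1 (633696 to 634376) is 98.5% identical to MT-ATP6. The same block holds copies of parts of other genes. MTCO3P12 is 98.17% identical over 69.8% of MT-CO3, and MTND1P23 is 99.15% identical over 36.8% of MT-ND1. On chromosome 5, MTND6P4 is 95.02% identical to MT-ND6 and MTND4P12 is 95.78% identical to MT-ND4. The deposited table has no row under the symbols of these copies. No values of these copies were analysed here, and values of the mitochondrial genes are uncertain by whatever the counting assigned to them.

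Of the 21 nuclear members, 4 were higher with LACTB, 4 were lower and 13 did not pass, beside the 27.4% and 24.6% of all genes. Their median log2 difference was 0.09, near that of all genes. The calls lay in RNA stability, RNA processing and translation elongation, with none among the 10 genes of transcription and replication. With equal column totals 6 of the 21 were higher and 3 lower, beside 38.5% and 14.7% of all genes. Groups did not overlap for 11 of the 21, against 59.7% of all genes.

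The transcription machinery did not pass the test. TFAM, which packages mitochondrial DNA and helps start transcription (chromosome 10, 58385022 to 58399221), stood at 1336, 959 and 939 in vector and 1047, 1117 and 1112 in LACTB libraries. Vector library 1 was the highest and the other vector libraries the lowest. The difference was 0.04 (SE 0.14, limma adjusted p = 0.844), and it was -0.44 and past the threshold once length and GC were removed (limma adjusted p = 0.00568). POLRMT (chromosome 19, 617224 to 633604) stood at 2246, 2666 and 3016 in vector and 2554, 2220 and 2117 in LACTB libraries, which overlapped, a difference of -0.20 (SE 0.13, limma adjusted p = 0.194). POLRMT passed as lower without vector library 1 (-0.31, limma adjusted p = 0.0184) and with median centring (-0.33), and its difference was 0.13 with length and GC removed.

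TFB2M, the initiation factor that opens the promoter, was 697 to 947 in vector and 647 to 886 in LACTB libraries, a difference of -0.10 (SE 0.15). TFB1M, an rRNA methyltransferase, was 432 to 559 and 329 to 396, without overlap, and its difference of -0.37 did not pass as deposited (limma adjusted p = 0.0647) but passed with median centring (-0.50), quantile normalization (-0.57, limma adjusted p = 0.00703) and length and GC removal (-0.38). The elongation factor TEFM was among the least abundant members, at 98.2 to 169 in vector and 97.7 to 171 in LACTB libraries. MTERF1, which binds a termination site behind the rRNA genes, was 130 to 228 and 181 to 271, a difference of 0.33 that passed only without vector library 1 (0.54, limma adjusted p = 0.0458). MTERF3, a factor of mitochondrial ribosome assembly, was 337 to 402 and 391 to 410. The standard errors of TEFM and MTERF1, 0.26 and 0.23 on the log2 scale, were the widest of the 34.

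Replication genes also did not pass. POLG, the catalytic subunit of the DNA polymerase, was 2694 to 3292 in vector and 3131 to 3457 in LACTB libraries (log2 difference 0.09, SE 0.12). Its accessory subunit gene POLG2 was 255 to 414 and 358 to 414 (0.25, SE 0.18). SSBP1, the single-strand DNA-binding protein, was 5035 to 7452 and 5286 to 5509 (-0.15, SE 0.13), and the spread of its vector libraries, a coefficient of variation of 20.4%, was far above the 2.07% of the LACTB libraries. With length and GC removed SSBP1 passed as lower (-0.38, limma adjusted p = 0.00605) and POLG as higher (0.21, limma adjusted p = 0.0271).

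LRPPRC and SLIRP, whose proteins form one complex on mitochondrial mRNAs, moved in opposite directions. SLIRP (chromosome 14, 77708071 to 77761104) stood at 3072, 2425 and 2919 in vector and 1349, 1452 and 1571 in LACTB libraries. All LACTB values were well below all vector values. SLIRP fell by 0.94 on the log2 scale (SE 0.12, limma adjusted p = 1.85e-06), the largest in size of the 34, and it ranged from -1.07 to -0.75 over 17 alternatives with no call lost. LRPPRC (chromosome 2, 43886508 to 43996005) stood at 1217, 1069 and 907 in vector and 1527, 1697 and 1417 in LACTB libraries, without overlap. Its difference was 0.55 (SE 0.13, limma adjusted p = 0.00165), 0.74 with equal column totals, and 0.08 with length and GC removed, where it did not pass (limma adjusted p = 0.546). The ratio of SLIRP to LRPPRC counts was 2.53, 2.27 and 3.22 in vector and 0.883, 0.855 and 1.11 in LACTB libraries. SLIRP is encoded opposite SNW1 over part of its length, and with no strand setting given their reads may not be told apart.

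Of the degradation pair, PNPT1 (chromosome 2, 55634265 to 55693910) stood at 665, 655 and 458 in vector and 838, 912 and 881 in LACTB libraries, without overlap. PNPT1 rose by 0.58 on the log2 scale (SE 0.15, limma adjusted p = 0.00303). With length and GC removed the difference was 0.22 and did not pass (limma adjusted p = 0.103). Its partner SUPV3L1 stood at 742, 711 and 637 in vector and 817, 823 and 832 in LACTB libraries, also without overlap. The SUPV3L1 difference of 0.24 (SE 0.13) did not pass as deposited (limma adjusted p = 0.132) and passed with equal column totals (0.44, limma adjusted p = 0.0157) and without vector library 1 (0.29).

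**Figure D3:**
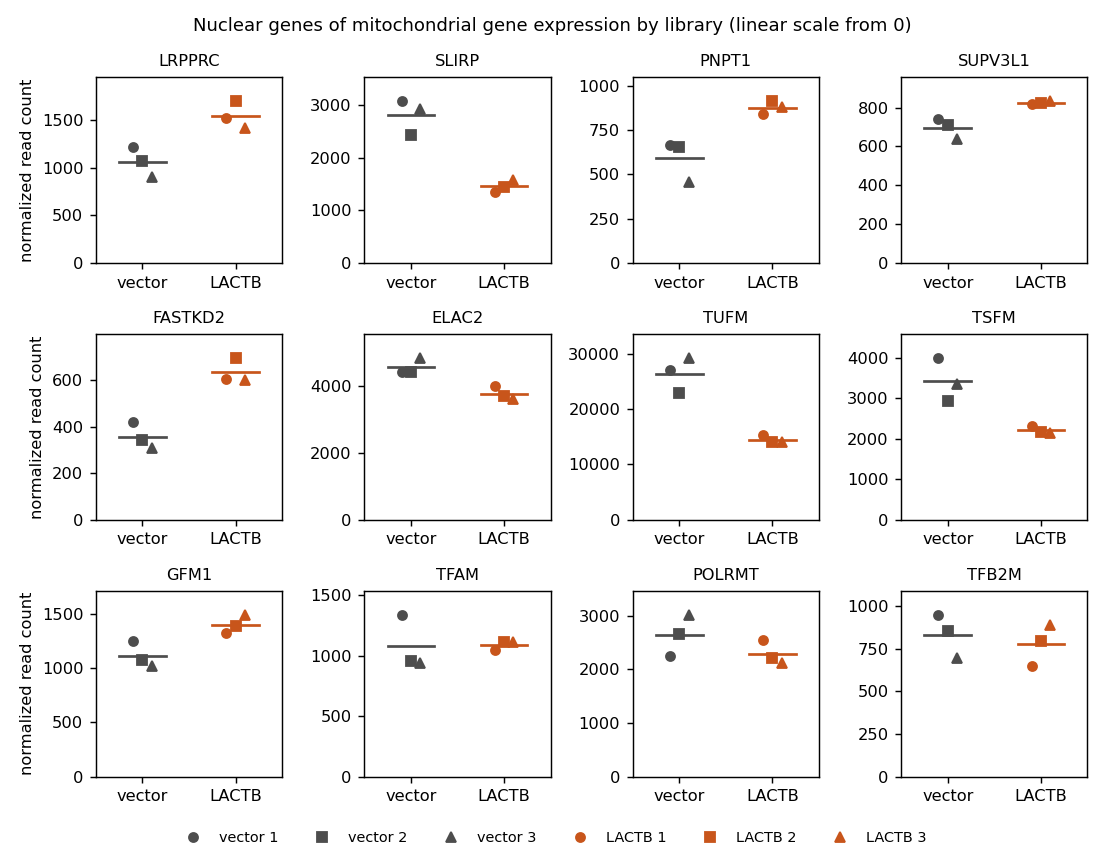
Normalized read counts of 12 nuclear genes in each library (linear axes from 0, a separate axis per gene); points are libraries and lines are means of 3 libraries. SLIRP, TUFM, TSFM and ELAC2 are lower in every LACTB library than in any vector library. LRPPRC, PNPT1, FASTKD2, SUPV3L1 and GFM1 are higher in every LACTB library, while TFAM, POLRMT and TFB2M overlap.

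Among processing genes, FASTKD2, an RNA-binding protein of the large mitochondrial ribosomal subunit's assembly (chromosome 2, 206765357 to 206792509), stood at 420, 341 and 309 in vector and 606, 694 and 601 in LACTB libraries. The groups were far apart, with a log2 difference of 0.84 (SE 0.16, limma adjusted p = 0.000186), 0.40 with length and GC removed (limma adjusted p = 0.0108). FASTKD1 was 162 to 258 in vector and 270 to 304 in LACTB libraries, and its difference of 0.41 did not pass (limma adjusted p = 0.0873) except with equal column totals (0.60) and without vector library 1 (0.54). FASTKD5, required for cleavage at junctions that lack a tRNA, such as that of MT-ATP6 and MT-CO3 shown above, was 1093 to 1441 and 1315 to 1361, a difference of 0.12 (SE 0.13, limma adjusted p = 0.464). ELAC2, the tRNA 3' end nuclease (chromosome 17, 12992391 to 13018187), stood at 4394, 4411 and 4818 in vector and 3981, 3704 and 3593 in LACTB libraries. Its log2 difference of -0.27 (SE 0.11, limma adjusted p = 0.0403) lost its call in 11 of 17 alternatives. They included equal column totals (-0.08, limma adjusted p = 0.512) and leaving out vector library 3 or any LACTB library. With the replicate number as a block the limma adjusted p was 0.057.

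All 3 translation elongation factors passed, in differing directions, beside 24.6% of all genes called lower and 27.4% higher. TUFM, the mitochondrial EF-Tu that brings tRNAs to the ribosome (chromosome 16, 28842411 to 28846408), stood at 27090, 22916 and 29219 in vector and 15282, 14150 and 14109 in LACTB libraries. TUFM was the most abundant nuclear member by count, and its LACTB values were all well below its vector values. Its log2 difference was -0.86 (SE 0.12, limma adjusted p = 3.92e-06), -0.67 with equal column totals and -0.51 with length and GC removed, each past the threshold. TSFM, its nucleotide exchange factor (chromosome 12, 57782589 to 57808071), stood at 3987, 2927 and 3347 in vector and 2324, 2177 and 2153 in LACTB libraries. TSFM fell by 0.61 (SE 0.12, limma adjusted p = 0.000244), and by 0.42 with equal column totals. Neither the TUFM nor the TSFM call was lost in 17 alternatives.

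GFM1, the translocase EF-G1 (chromosome 3, 158644278 to 158692575), went the other way, at 1248, 1078 and 1023 in vector and 1324, 1390 and 1490 in LACTB libraries. Its log2 difference of 0.33 (SE 0.13, limma adjusted p = 0.0311) lost its call in 11 of 17 alternatives. They included length and GC removal (0.04, limma adjusted p = 0.75), median centring (0.20) and leaving out any library except vector library 1. The TUFM to GFM1 ratio was 21.7, 21.3 and 28.6 in vector and 11.5, 10.2 and 9.47 in LACTB libraries.

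**Figure D4:**
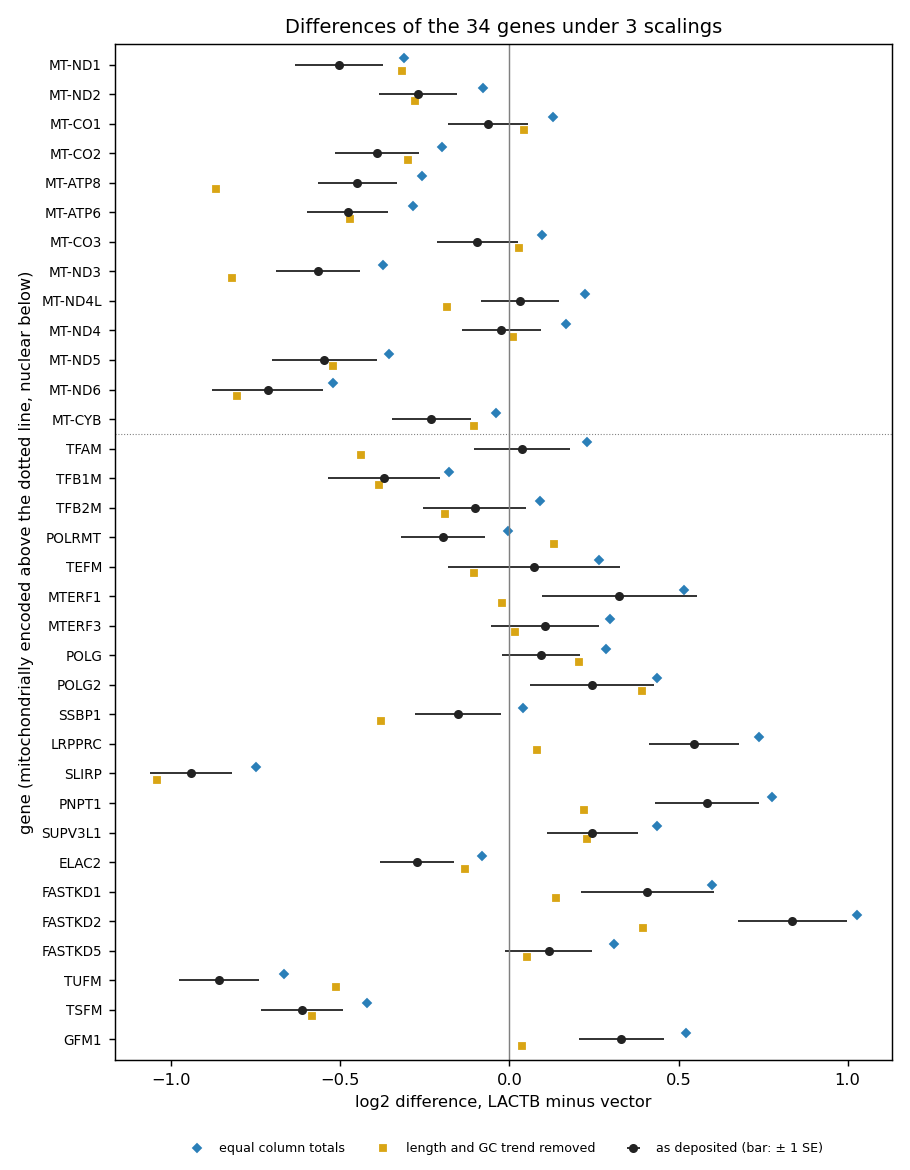
Log2 difference of each of the 34 genes (LACTB minus vector) as deposited, with equal column totals and after removal of a trend on transcript length and GC; bars are 1 standard error of the deposited-scale estimate. SLIRP, TUFM and TSFM stay well below 0 under all 3, while LRPPRC, PNPT1 and GFM1 move toward 0 with length and GC removed.

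Differences of the nuclear members went with transcript length and base composition, as did those of all genes. Over the 21 nuclear members Spearman's rho of the log2 difference was 0.54 with the length of the longest transcript and -0.41 with GC content, against 0.41 and -0.45 over 12722 genes. Over the 13 mitochondrial genes it was 0.21 and 0.30. These are correlations across genes of the same 6 libraries and are given as description. LRPPRC has the longest transcript of the members (6335 bases) and SLIRP the shortest of the nuclear ones (865 bases). The call of SLIRP held when the trend was removed (-1.04) and that of LRPPRC did not.

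Promoters of LRPPRC and SLIRP are shown because their transcripts moved apart. They are from RefSeq (GRCh38.p14) and span an annotated start, in lower case with each match to CCGGAA, the core bound by ETS factors such as GABPA, in capitals on either strand.
SLIRP, chr14:77707853-77708152, plus strand: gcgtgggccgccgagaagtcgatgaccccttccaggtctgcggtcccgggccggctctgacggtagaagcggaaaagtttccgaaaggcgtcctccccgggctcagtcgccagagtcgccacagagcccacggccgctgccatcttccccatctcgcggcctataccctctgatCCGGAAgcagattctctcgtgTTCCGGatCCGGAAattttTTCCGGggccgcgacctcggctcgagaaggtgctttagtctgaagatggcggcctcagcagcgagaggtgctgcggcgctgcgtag
LRPPRC, chr2:43995940-43996239, minus strand: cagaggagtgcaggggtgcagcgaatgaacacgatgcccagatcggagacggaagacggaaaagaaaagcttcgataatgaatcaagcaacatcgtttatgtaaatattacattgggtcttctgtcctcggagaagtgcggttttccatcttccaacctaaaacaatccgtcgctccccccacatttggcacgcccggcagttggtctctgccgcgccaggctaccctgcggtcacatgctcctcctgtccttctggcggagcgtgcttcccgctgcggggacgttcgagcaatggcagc
The SLIRP window held 4 matches and the LRPPRC window 0. Of 19 nuclear members with a promoter in the table, 10 held CCGGAA on either strand (52.6%), against 20.1% of 27305 genes with windows of this length. The 27305 were not limited to the 12939 genes tested, so these shares are of unlike sets. Among members called lower it was in 3 of 4 (SLIRP, ELAC2 and TUFM), among those called higher in 1 of 4 (GFM1), and among those not called in 6 of 11. The share with CCGGAA among all genes called lower or higher was not computed, so no relation to direction is read from these counts. The NRF1 site, its palindromic consensus, was in 2 of the 19 (POLRMT and TFB1M) and in 1.52% of the 27305 genes. A match is a description of letters in a window.

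Other genes of mitochondrial gene expression were counted in 5 lists. Their counts are to be read beside the shares of all genes, 27.4% higher and 24.6% lower as deposited and 38.5% and 14.7% with equal column totals. Of 17 further RNA processing, modification and decay genes tested, 3 were higher and 5 lower (median -0.02), beside 27.4% and 24.6% of all genes, and with equal column totals 4 were higher and 3 lower. MTO1, a tRNA-modifying enzyme, rose by 0.73 and NSUN3, a tRNA methyltransferase, by 0.74, but neither passed with length and GC removed. HSD17B10, a subunit of the mitochondrial RNase P, fell from 9791 ± 1595 to 5706 ± 196 (SD, n = 3 each), and RPUSD3, a pseudouridine synthase, fell by 0.56. Of 16 other FASTK, PTCD and RNA granule genes, 4 were higher and 7 lower (median -0.17), and with equal column totals 6 were higher and 3 lower, beside 38.5% and 14.7% of all genes. PTCD3, a small-subunit ribosomal protein, and PTCD2 rose by 0.55 and 0.82, calls lost with length and GC removed. The ribosome assembly GTPase genes MTG1 and MTG2 fell by 0.84 and 0.53.

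Of 18 further genes of mitochondrial DNA replication and maintenance, 3 were higher and 3 lower (median 0.02), beside 27.4% and 24.6% of all genes, and with equal column totals 5 were higher and 2 lower. The ribonucleotide reductase subunit gene RRM2B rose by 0.82 and the nuclease and helicase gene DNA2 by 0.91. TWNK, the replicative helicase, fell from 2726 ± 194 to 1951 ± 62.9, and the nuclease gene ENDOG fell by 0.83, which did not pass after length and GC removal. Of 14 translation and assembly genes, 4 were higher and 3 lower (median 0.02), near the 27.4% and 24.6% of all genes, and with equal column totals 5 were higher and 1 lower. GUF1 and the initiation factor gene MTIF2 rose by 0.77 and 0.50. COX14, an assembly factor that binds newly made MT-CO1 protein, fell from 3266 ± 558 to 1627 ± 99.9, and RMND1 fell by 0.55, a call lost with equal column totals.

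Of 13 tested nuclear regulators and quality-control genes, 3 were higher and 3 lower (median 0.01), near the 27.4% and 24.6% of all genes. With equal column totals 6 were higher and 3 lower, beside 38.5% and 14.7%. CREB1 rose by 0.66 and GABPB1, a partner of GABPA, by 0.43, and both calls were lost with length and GC removed. LONP1, the matrix protease that degrades free TFAM, fell from 11534 ± 1234 to 6697 ± 215, and ESRRA, a nuclear receptor of mitochondrial biogenesis, fell by 0.71, both also with equal column totals. Limma adjusted p for the genes named from these lists was at most 0.0241.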

How the data were processed

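The authors deposited 1 table with a signal value (a normalized read count) for each of 24489 rows and 6 libraries. Trizol extraction and NEB library construction are named per the labels' protocols, and HISAT2 and hg38 per the submitters' processing notes. For the counter, annotation, strand setting and scaling, the sources used here give nothing. Values below 1e-10 were set to 0, and of repeated rows, which 9 symbols had, the one of higher mean was used. Values of 0.5 to 15 were examined for multiples of a single read. The best multiple made 36.2% to 61.3% of values whole at a tolerance of 0.05, so reads were not recovered and depth is unknown. LACTB libraries 1 and 2 had 0% of genes between 0 and 0.2, and the other 4 libraries 10.7% to 14.7%. The cause was not tested.

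The LACTB and vector libraries were compared on log2(value + 1) by limma 3.58.1 (R 4.3.3), two-sided, with the trend and robust options and no covariate. That scale understates changes of low genes. Only genes whose mean reached 1 CPM, or 37.7 normalized counts, entered. The fit was tested on simulated data. Nuclear copies were aligned with BLAST+ 2.17.0. Lengths and GC, from GENCODE release 29, matched 98.3% of tested genes, and their trend was a spline with 5 degrees of freedom per property. The table's gene symbols were matched to GENCODE and RefSeq by symbol, and 17 of 24 listed RNA processing genes were matched. All 34 members were named. Of each other list, the 2 genes with the smallest adjusted p in each direction were named. The members and lists were chosen with earlier results of these data known. Exact permutation tests used SciPy 1.17.1 and figures matplotlib 3.10.9.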

Additional observations from a re-analysis of the deposited data

How the results depend on the processing

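With quantile normalization 2 mitochondrial genes were lower and 3 higher, against 7 and 0 as deposited. Of all 12939 genes, 3296 were lower and 3214 higher with it, against 3177 and 3544 as deposited. Nuclear members called higher numbered 2 with length and GC removed, against 4, and those called lower numbered 6, against 4. Of the 12722 genes in that fit, 3015 were higher and 3169 lower. With median centring 9 mitochondrial genes were lower and 0 higher, and 3 nuclear members were higher and 6 lower. Of all 12939 genes, 4148 were lower and 2684 higher with it. Over the fits that left out 1 library, mitochondrial genes called lower ranged from 5 to 9 and nuclear ones from 3 to 5. Nuclear members called higher ranged from 3 to 7, the 7 without vector library 1. Over all genes these fits called 2553 to 3441 lower and 2792 to 3884 higher. The 3441 and 3884 were without vector library 1. The share of the column total taken by the 13 differed by -0.10 percentage points (LACTB minus vector), by -0.23 without cytosolic ribosomal protein genes in the total, and by -0.19 to -0.026 when 1 library was left out.

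Differences whose sign changed belonged to genes not called as deposited. Under equal column totals they were MT-ND4 (0.17), MT-CO1 (0.13), MT-CO3 (0.10), TFB2M (0.090) and SSBP1 (0.040). Under quantile normalization they were MT-ND2 (0.14), MT-ND4 (0.25), MT-CYB (0.13), MT-CO1 (0.32), MT-CO3 (0.13), TFAM (-0.043), TEFM (-0.080), MTERF3 (-0.10) and SSBP1 (0.022). With length and GC removed they were MT-ND4 (0.0094), MT-ND4L (-0.18), MT-CO1 (0.043), MT-CO3 (0.030), TFAM (-0.44), POLRMT (0.13), TEFM (-0.10) and MTERF1 (-0.022). With median centring they were MT-ND4L (-0.10), TFAM (-0.10), TEFM (-0.059), MTERF3 (-0.027), POLG (-0.038) and FASTKD5 (-0.016). The cause of these changes was not tested. Leaving out 1 library gave ranges that crossed 0 for MT-ND4 (-0.068 to 0.036), MT-ND4L (-0.052 to 0.081), TFAM (-0.053 to 0.20), TFB2M (-0.22 to 0.022), TEFM (-0.12 to 0.30), POLG (-0.0017 to 0.14) and SSBP1 (-0.28 to 0.0046).

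The calls of MT-ND6, MT-ATP8, SLIRP, FASTKD2, TUFM and TSFM held in all 17 alternatives. Whether replicate numbers pair the libraries cannot be decided from 3 libraries per group. Deviations of same-numbered libraries correlated at 0.023, 0.182 and 0.003, and vector library 3 correlated best with LACTB library 1 (0.161). The 0.182 of vector library 2 and LACTB library 2 was the highest. With the replicate number as a block, 7 mitochondrial genes were lower, and 4 nuclear members were higher and 3 lower. Over all genes it called 6879, against 6721. DESeq2 was not run, since the table holds no raw counts. Depth is unknown, so no counting error can be given.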
